A study of Mus musculus with 6 samples.

Results

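The genes described here encode 4 enzyme families that change foreign compounds and the body's own small lipids: cytochromes P450 (CYP), glutathione S-transferases (GST), UDP-glucuronosyltransferases (UGT) and cytosolic sulfotransferases (SULT). A gene was taken if its symbol started with Cyp and a digit (Cyp51, of sterol synthesis, left out), Gsta, Gstm, Gstp, Gstt, Gsto, Gstk, Ugt1, Ugt2 or Sult. Of 12362 genes that could be named on the array, 87 were members: 51 CYP, 18 GST, 7 UGT and 11 SULT genes. The reference gene table holds 161 such symbols, so 74 symbols, among them Gstp1, Ugt1a1, Cyp2b10 and Cyp3a25, had no named probe and were not analysed here. Where a gene had several probes, the one with the highest mean crypt signal was used.

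Crypts, the pits between villi where intestinal epithelial cells divide, were cut by laser from the middle small intestine of 6 mice on a C57BL/6 background, aged 120 days. The 3 LOI(+) mice carried, on the chromosome from their mother, a deletion that removes H19 and the control region upstream of it, which leads to loss of imprinting (LOI) of Igf2, a growth factor gene. The 3 LOI(-) mice were wild-type littermates. The deletion was carried by the whole animal, not by the crypt alone. Of the 6 mice, 4 were labelled male, and the labels of LOI(-) 3 and LOI(+) 2 gave no sex. On each array the RNA of 1 mouse carried the dye Cy3 and Universal Mouse Reference RNA, pooled from cell lines in culture, carried Cy5. Every value below is a log2 ratio of crypt to reference signal, or a difference of such ratios. Dyes were not swapped, so a gene's dye effect is part of its ratio to the reference, while both groups share it. The reference was 1 pool, whose own spread was not measured.

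Cytochromes P450 add oxygen to lipophilic substrates in the endoplasmic reticulum or in mitochondria, and are often called phase I enzymes. GST, UGT and SULT enzymes attach glutathione, glucuronic acid or sulfate, which makes the products easier to excrete. The small intestine is the first tissue that absorbed drugs, plant compounds and bile acids pass, and much of this metabolism is carried by the absorptive enterocytes that mature as cells leave the crypt. Several of these genes are known targets of the nuclear receptors PXR, CAR and PPAR alpha, of the aryl hydrocarbon receptor or of the stress factor NRF2.

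Median Cy3 signals were 552 to 603 per array, and log2 ratios of any pair of arrays correlated across genes with r of 0.932 to 0.975. LOI(+) 2 had the most features marked as outliers, 146, against 14 to 50 on the other arrays. H19 itself was not analysed here, which leaves the labels without a check at the deleted locus. Of 10 measured markers of villus enterocytes, 9 were called above the reference, with a median ratio of 3.69, and of 7 measured markers of crypt base stem cells 3 were, among them Lgr5 at 1.38 and Smoc2 at 2.99. Transcripts typical of mature enterocytes and of stem cells were thus both present in the dissected material. Of 5 measured fibroblast markers, 4 were called below the reference. In bulk RNA, fewer cells of a type and less RNA per cell cannot be told apart.

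Among the 87 members, 83 gave a Cy3 signal on all 6 arrays that exceeded 95% of the negative control features. The signal of Cyp3a16 passed that level on 0 arrays, and that of Cyp2e1 passed it in neither channel on any array. On the log2 scale 57 of 87 lay within 0.5 of the reference, and 28 of these 57 had a Cy3 signal under 600 on every array, as did 4 of the other 30. No member was saturated in Cy3, and Gstp2 was saturated in Cy5 on 1 array.

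Upstream sequences were read for the members whose values the results turn on. RefSeq windows of GRCm38.p6, from 250 bases before to 50 after a transcript start, were found for 72 of the 87 members, 86 windows in all. Windows are shown for Gstm1, Gstm2 and Gstm3, neighbouring mu class GST genes with the 3 smallest unadjusted p of the members for the group difference (none passed the adjusted test), and for Sult1b1 and Sult1d1, neighbouring genes with high crypt ratios. For Gstm1 and Sult1b1, which have 2 windows each, the one with more matches was taken. Each is on the minus strand, printed 5′ to 3′ in the sense of the gene, with matches to the searched motifs in capitals. They lie at chr3:108017769-108018068 (Gstm1), chr3:107986371-107986670 (Gstm2), chr3:107969125-107969424 (Gstm3), chr5:87536173-87536472 (Sult1b1) and chr5:87568957-87569256 (Sult1d1).
Gstm1: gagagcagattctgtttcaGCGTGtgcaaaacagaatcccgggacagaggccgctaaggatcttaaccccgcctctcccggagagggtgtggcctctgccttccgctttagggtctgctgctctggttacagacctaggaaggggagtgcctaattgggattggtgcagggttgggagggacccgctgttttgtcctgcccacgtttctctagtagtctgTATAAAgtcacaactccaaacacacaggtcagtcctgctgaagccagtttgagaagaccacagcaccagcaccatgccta
Gstm2: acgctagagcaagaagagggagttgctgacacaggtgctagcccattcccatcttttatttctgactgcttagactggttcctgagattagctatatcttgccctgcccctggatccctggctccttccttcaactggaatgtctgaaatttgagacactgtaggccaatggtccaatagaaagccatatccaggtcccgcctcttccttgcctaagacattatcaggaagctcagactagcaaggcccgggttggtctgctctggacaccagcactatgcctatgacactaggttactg
Gstm3: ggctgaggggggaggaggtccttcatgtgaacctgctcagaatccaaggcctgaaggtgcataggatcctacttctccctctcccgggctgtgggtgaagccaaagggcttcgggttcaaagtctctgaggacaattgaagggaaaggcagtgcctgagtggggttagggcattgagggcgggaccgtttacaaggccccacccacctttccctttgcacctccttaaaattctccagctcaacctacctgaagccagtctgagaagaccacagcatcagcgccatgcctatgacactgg
Sult1b1: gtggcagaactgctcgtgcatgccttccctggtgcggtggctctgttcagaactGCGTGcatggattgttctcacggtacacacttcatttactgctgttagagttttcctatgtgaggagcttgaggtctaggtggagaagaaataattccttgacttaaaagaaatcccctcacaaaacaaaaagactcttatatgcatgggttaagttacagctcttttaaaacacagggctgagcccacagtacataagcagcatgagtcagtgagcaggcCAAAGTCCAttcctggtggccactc
Sult1d1: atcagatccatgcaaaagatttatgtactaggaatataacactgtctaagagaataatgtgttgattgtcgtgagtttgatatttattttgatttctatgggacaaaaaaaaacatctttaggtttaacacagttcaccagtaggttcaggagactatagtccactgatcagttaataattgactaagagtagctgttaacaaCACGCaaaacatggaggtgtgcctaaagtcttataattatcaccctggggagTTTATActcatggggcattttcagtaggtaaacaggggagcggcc

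The 4 motifs searched, on both strands, were the antioxidant response core TGACNNNGC, the xenobiotic response core GCGTG, the TATA box TATAAA and an HNF4 site CAAAGTCCA. The Gstm1 window held TATAAA starting 30 bases and GCGTG starting 231 bases before the transcript start, while the Gstm2 and Gstm3 windows held none of the 4. The Sult1b1 window held GCGTG starting 196 bases before the start and CAAAGTCCA from base 26 of the transcript. The Sult1d1 window held GCGTG starting 47 bases before the start and TATAAA from base 6 of the transcript, both on the other strand. TATAAA was in 34.9% of member windows and in 13.6% of all 32851 windows. CAAAGTCCA was in 8.14% and 0.475%, in 7 members: Cyp2c40, Cyp2c70, Cyp3a11, Cyp3a16, Cyp3a41a, Cyp8b1 and Sult1b1. GCGTG was in 20.9% and 32.4%, and TGACNNNGC in 6.98% and 12.4%. In the Gstm5 window a TGACNNNGC match and a GCGTG match overlapped. A match is a description of these letters, not a sign of a bound site.

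Probes of close relatives can read each other's RNA, so the printed sequences matter for the GST genes. Both Gsta1 probes and both Gsta2 probes are shown, because these 4 oligonucleotides of 60 bases moved together. The capitals mark the run of 22 bases that the Gsta1 probes share with each other.
Gsta1, brightest probe: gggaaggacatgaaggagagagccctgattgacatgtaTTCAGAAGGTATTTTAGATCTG
Gsta1, other probe: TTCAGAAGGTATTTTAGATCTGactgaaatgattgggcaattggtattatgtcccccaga
Gsta2, probe: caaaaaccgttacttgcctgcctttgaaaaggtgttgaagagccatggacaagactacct
Gsta2, further probe: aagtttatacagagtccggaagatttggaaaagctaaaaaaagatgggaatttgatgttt
The Gsta2 probes shared no run of 15 or more bases with either Gsta1 probe. Of 7381 pairs of member probes, 7 shared such a run, 4 of them between different genes. A Gstm1 and a Gstm3 probe shared 19 bases, GCCCTCCCTAGAGTTACCC. The other pairs between genes were Cyp2c29 with Cyp2c38 (29 bases), Cyp2c38 with Cyp2c39 (22) and Cyp4a12a with Cyp4a12b (18). Which transcripts a probe can bind was not tested, since no transcript sequences were used here, so values of the mu and alpha GST, Gstp, Cyp2c, Cyp3a and Cyp4a genes may hold signal of close relatives.

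Sult1b1, Cyp4f14, Cyp3a13, Ugt2a3 and Sult1d1 stood far above the reference in crypts, by 11.7-fold to 33.6-fold. The sizes depended on the background step: without background correction they were 7.52-fold for Sult1b1, 12.7-fold for Cyp4f14, 4.32-fold for Cyp3a13, 3.48-fold for Ugt2a3 and 5.88-fold for Sult1d1. With the mean over a gene's probes Sult1b1 stood at 11.1-fold and Cyp3a13 at 3.58-fold. A gene was called where the adjusted p of limma was under 0.05 and the ratio passed 2-fold. Of the 87 members, 14 were called higher than the reference and 4 lower, against a background of 6.79% higher and 8.42% lower among named genes (4.34% and 5.35% of all 37939 genes and unnamed probes). The members called higher made up 16.1% of the 87 and those called lower 4.6%. Families were compared by counts and medians, with no test between them. Coverage differed, with 51 of 100 CYP, 18 of 21 GST, 7 of 19 UGT and 11 of 21 SULT symbols measured. A family median thus describes the measured genes only. The UGT genes had the highest median ratio, 0.81, with 3 of 7 called higher and 0 lower. The SULT median was 0.15, with 2 of 11 higher and 0 lower. The CYP median was 0.10, with 5 of 51 higher and 1 lower. The GST median was -0.026, with 4 of 18 higher and 3 lower, so this family held 3 of the 4 members called lower. The median over all named genes was -0.019.

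**Figure D1:**
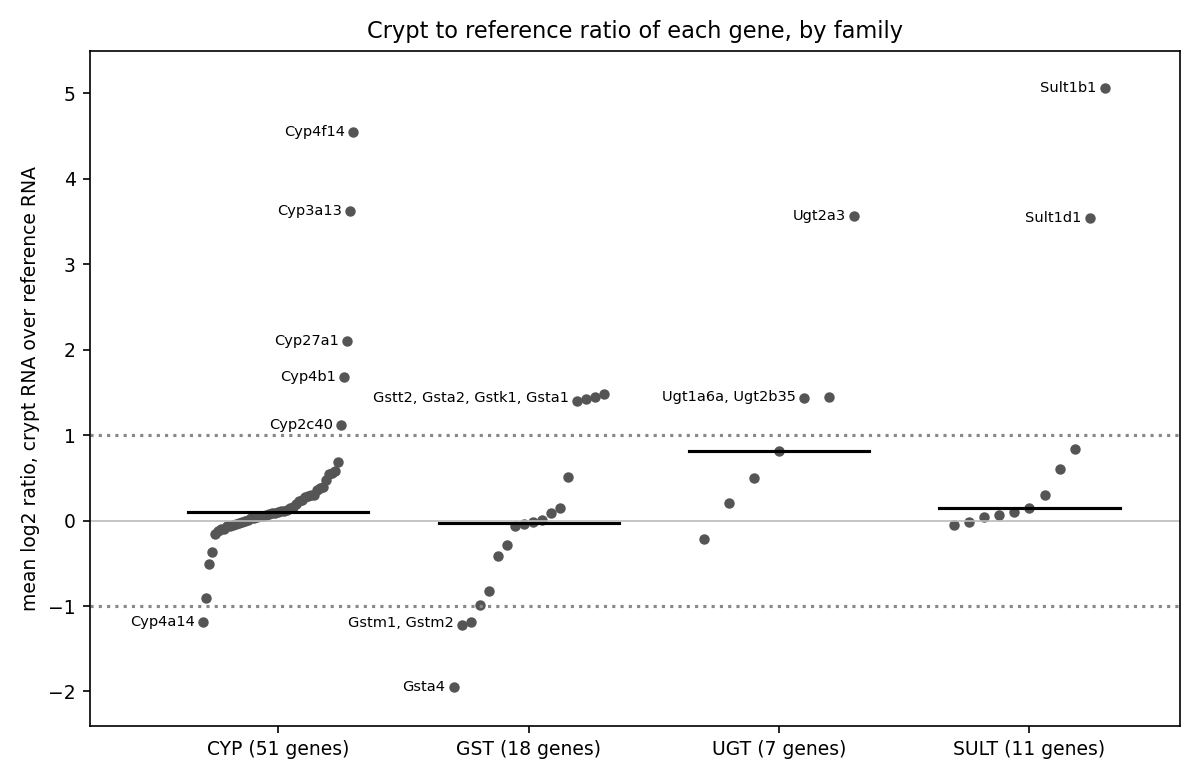
Mean log2 ratio of crypt to reference RNA for each of the 87 members (points, mean of 6 arrays), by family, with the family median as a bar and dotted lines at 2-fold. Most CYP and SULT points lie near 0, a few genes such as Sult1b1 at 5.07 and Cyp4f14 at 4.55 stand far above, and Gsta4 at -1.94 is the lowest.

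Among the CYP genes, Cyp4f14, which hydroxylates leukotrienes and fatty acids, had the highest ratio. Its values were 4.55, 4.49 and 4.70 in LOI(-) 1 to 3 and 4.61, 4.52 and 4.46 in LOI(+) 1 to 3, a mean of 4.55 ± 0.087 (SD, n = 6; adjusted p = 6.84e-10 in limma). This was among the steadiest of the high members, with groups that overlapped. Cyp3a13, a drug-oxidising CYP3A enzyme of the mouse intestine, had 3.53, 3.49 and 3.71 in LOI(-) and 3.36, 4.03 and 3.61 in LOI(+). Its mean was 3.62 ± 0.23 (SD, n = 6), and LOI(+) 2 was the highest array. Cyp27a1, the mitochondrial sterol 27-hydroxylase of bile acid synthesis, averaged 2.10 ± 0.30 (SD, n = 6). Cyp4b1, a fatty acid hydroxylase, averaged 1.68 ± 0.16 and Cyp2c40, an arachidonic acid oxygenase, 1.12 ± 0.13 (SD, n = 6 each).

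Cyp4a14, a fatty acid omega-hydroxylase and a classical PPAR alpha target, was the CYP gene called below the reference. Its values were -1.21, -1.18 and -1.67 in LOI(-) and -0.97, -1.05 and -1.03 in LOI(+), a mean of -1.19 ± 0.26 (SD, n = 6). Cyp2c55 was just outside the call at -0.91 ± 0.099 (SD, n = 6), with every array below the reference. Cyp3a11, the main CYP3A enzyme of mouse liver, had -0.60, 0.049 and -0.71 in LOI(-) and -0.51 and -0.68 in LOI(+) 1 and 3, and its LOI(+) 2 feature was marked as an outlier and left out. LOI(-) 2 was thus the one array where Cyp3a11 lay at the level of the reference. The enzymes that start and shape bile acid synthesis in liver, Cyp7a1 and Cyp8b1, averaged -0.058 ± 0.064 and -0.040 ± 0.076 (SD, n = 6), and Cyp2c29, another abundant liver enzyme, -0.098 ± 0.048. Cyp24a1, which degrades vitamin D hormone, averaged 0.091 ± 0.10 (SD, n = 6). The 2 measured liver markers, Ttr and Apoh, had ratios of 0.31 and 0.21.

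Cyp1a1, the standard target of the aryl hydrocarbon receptor, differed between mice rather than between groups. It had -0.021, -0.13 and 0.49 in LOI(-) and 0.12, -0.027 and 0.92 in LOI(+), so that the third mouse of each group was the highest. Its Cy3 signal exceeded the control level on 5 of 6 arrays. Cyp1b1, another target of that receptor, was below the reference on every array, with a mean of -0.37 ± 0.11 (SD, n = 6), and did not share the pattern.

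The neighbouring genes Sult1b1 and Sult1d1 led the SULT family. Sult1b1, which sulfates thyroid hormones and phenols, had 5.17, 4.73 and 5.15 in LOI(-) and 4.67, 5.60 and 5.09 in LOI(+), a mean of 5.07 ± 0.34 (SD, n = 6; adjusted p = 4.75e-08 in limma). Its reference signal was dim, 426 to 447, where 95% of negative controls stayed under 388 to 393 on the same arrays, so the size of this ratio rests on a weak denominator. Sult1d1, which sulfates catecholamines, had 3.30, 3.36 and 4.28 in LOI(-) and 2.97, 3.72 and 3.63 in LOI(+), with a mean of 3.54 ± 0.45 (SD, n = 6). LOI(-) 3 was the highest array for Sult1d1 and LOI(+) 2 for Sult1b1. Sult1a1, a phenol sulfotransferase, averaged 0.84 ± 0.26 and Sult1c1 0.60 ± 0.14 (SD, n = 6), both above the reference on every array and under 2-fold. The remaining 7 SULT genes lay between -0.051 (Sult1c2) and 0.30 (Sult2b1, a cholesterol sulfotransferase).

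Among the UGT genes, Ugt2a3, which conjugates bile acids, had 2.86, 3.44 and 3.76 in LOI(-) and 3.38, 4.16 and 3.77 in LOI(+), a mean of 3.56 ± 0.44 (SD, n = 6). Its reference signal was dim too, 439 to 481. Ugt1a6a, which conjugates small planar phenols, averaged 1.45 ± 0.27 with strong signal in both channels, from 6821 to 16930 in Cy3. Ugt2b35 averaged 1.43 ± 0.25, and Ugt2b38, Ugt2b5 and Ugt2a1 averaged 0.81, 0.50 and 0.20 and were above the reference on all 6 arrays. Ugt2b1, a major liver form, was the lowest at -0.21 ± 0.17 (SD, n = 6).

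**Figure D2:**
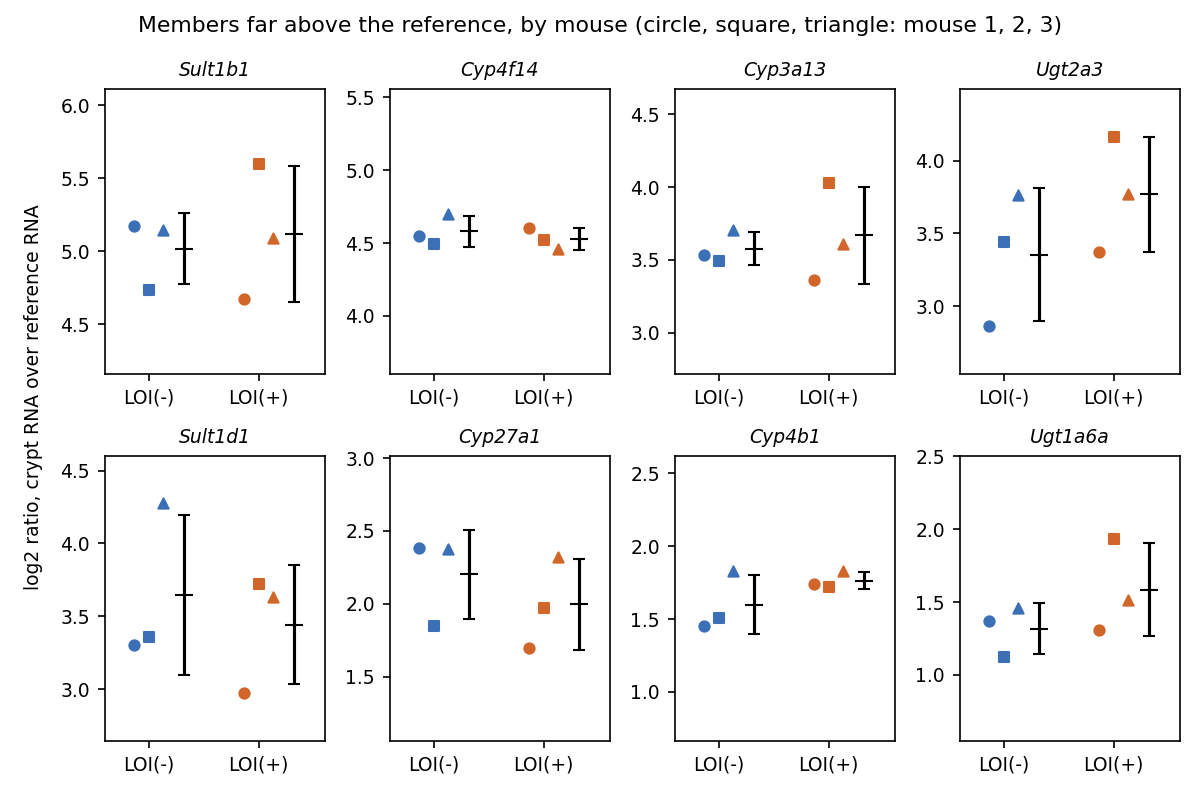
Log2 ratio of crypt to reference RNA in each mouse for 8 members called above the reference (LOI(-) blue, LOI(+) orange; bars, mean and SD of 3 mice). Every panel spans the same number of log2 units around its own middle; the groups overlap in all 8, and LOI(+) 2 (square) is the highest mouse for Sult1b1, Cyp3a13, Ugt2a3 and Ugt1a6a.

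GST genes lay on both sides of the reference, within the alpha class too. Gstt2 of the theta class averaged 1.48 ± 0.15, Gstk1, the kappa enzyme of mitochondria and peroxisomes, 1.43 ± 0.29, and the alpha genes Gsta2 and Gsta1 1.44 ± 0.53 and 1.40 ± 0.54 (SD, n = 6 each). These 4 were called above the reference. Gsta4, an alpha enzyme that clears the lipid peroxidation product 4-hydroxynonenal, was called below it at -1.94 ± 0.12, with every array between -2.16 and -1.83. The mu genes Gstm1 and Gstm2 were called below it at -1.18 ± 0.23 and -1.23 ± 0.26 (SD, n = 6). Gstm3 at -0.82 and Gsta3 at -0.99 were under 2-fold, and Gstm5 averaged -0.28. The omega genes Gsto1 and Gsto2 lay on opposite sides, at 0.51 and -0.41. The pi genes and the other theta genes lay within 0.15 of the reference.

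Comparing LOI(+) with LOI(-) asks whether the deletion went with a change in these enzymes. No member passed: 0 of 37939 features had an adjusted p under 0.05 in limma (0%), and the smallest adjusted p, 0.8005, was shared by members and all features. The 95% interval of the difference lay within 1 log2 unit for 84 of 87 members and within 0.5 for 68. At this number of mice, changes of 2-fold or more in the measured ratio thus lay outside the interval for most members. The exceptions were Gsta1, Gsta2 and Ugt2a3. Dim probes had narrow intervals too, such as -0.030 to 0.27 for Cyp2e1, whose signal passed the control level on 0 arrays. For such members a narrow interval does not exclude a 2-fold change of the RNA. At an unadjusted p under 0.05 there were 9 members, all higher in LOI(+): Gstm3, Gstm2, Gstm1, Ugt2b35, Cyp26a1, Gstp2, Cyp4a14, Cyp2a4 and Gstm4. The background was 3.93% higher and 2.22% lower among all features (6.15% in either direction), and 4.97% and 2.62% among named genes (7.59%), against 10.3% of the members higher. Over the alternative settings 4 to 11 members were higher and 0 to 4 lower at that level, the 4 lower without LOI(-) 1. Without LOI(+) 1 the share higher was 8.05% of members against 8.77% of named genes, while in the other alternatives the members had the larger share. With arrays that did not overlap between groups, 10 members were higher and 2, Cyp11b2 and Cyp4f39, lower, against 6.45% and 4.99% of all features and 6.75% and 4.93% of named genes.

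By family, the difference was above 0 in 24 of 51 CYP, 14 of 18 GST, 3 of 7 UGT and 6 of 11 SULT genes, against 52.8% of named genes and 51.3% of all features. The median difference was 0.16 for GST, -0.022 for CYP, -0.0082 for UGT and 0.014 for SULT, and 0.0067 for all named genes. Of the 9 members at an unadjusted p under 0.05 5 were GST genes, 3 CYP genes and 1 a UGT gene. Without LOI(+) 2 the GST median was 0.037 with 11 of 18 above 0, and without LOI(-) 2 it was 0.092.

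**Figure D3:**
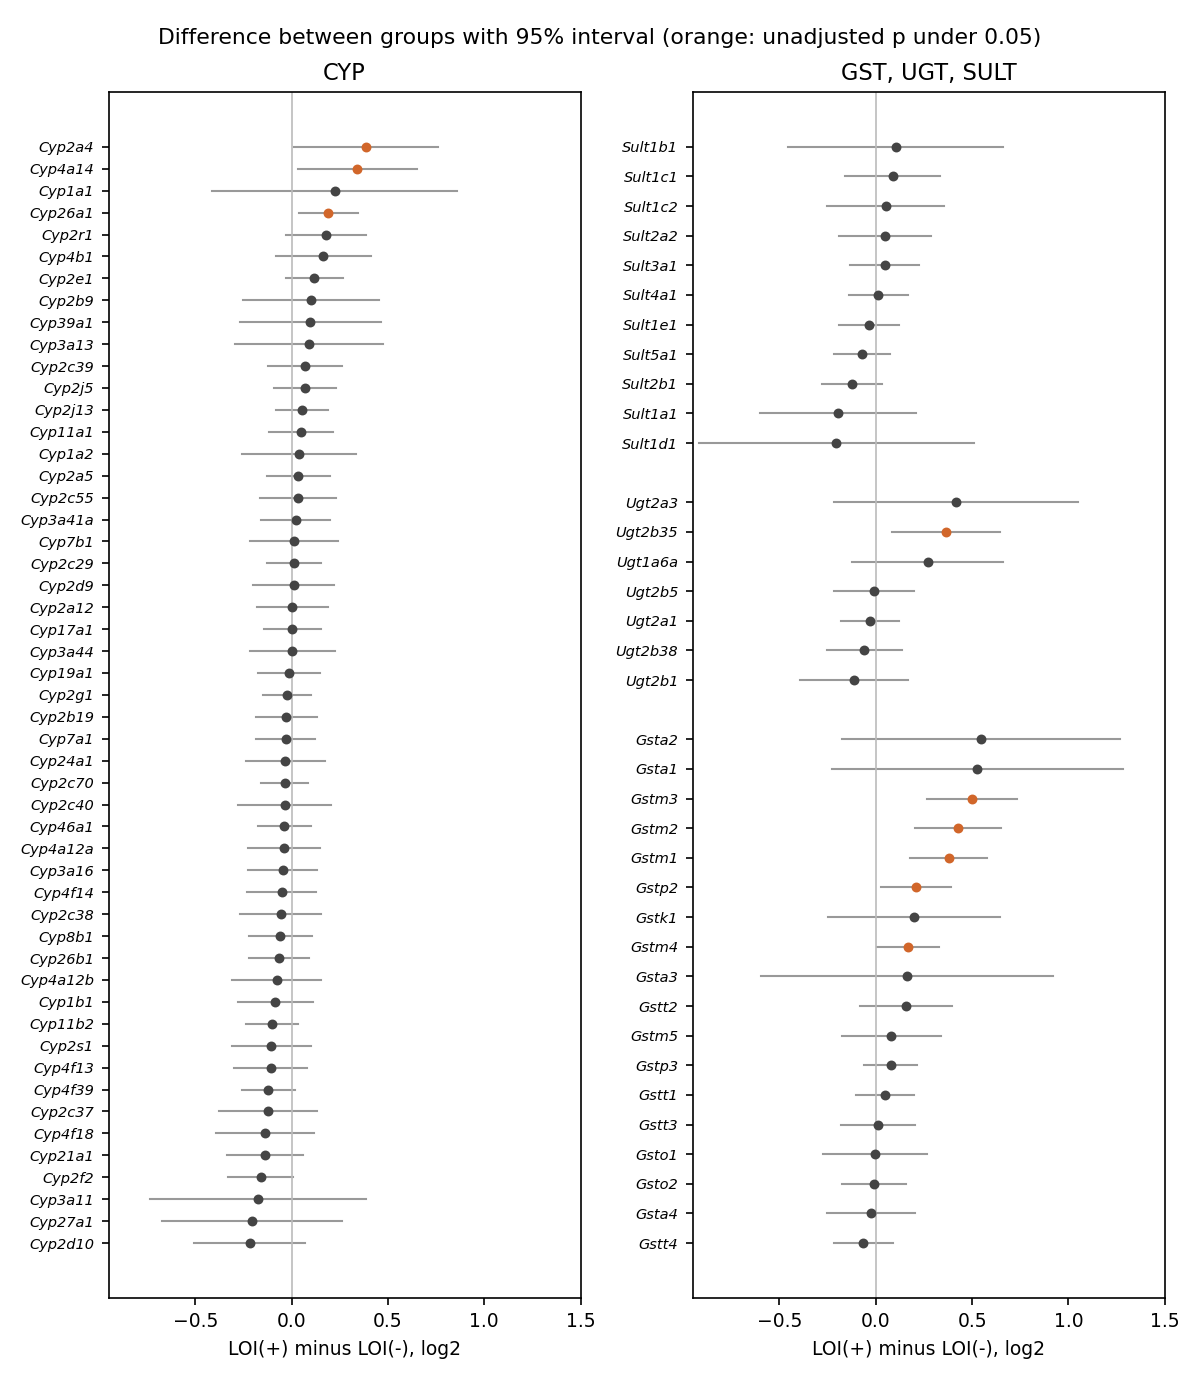
Log2 difference of LOI(+) minus LOI(-) and its 95% interval for all 87 members, CYP on the left and SULT, UGT and GST from top to bottom on the right. Orange points have an unadjusted p under 0.05; all 9 lie to the right of 0, none passed after adjustment, and the widest intervals belong to Gsta1, Gsta2, Gsta3 and Sult1d1.

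The mu class GST genes, which conjugate electrophiles and epoxides with glutathione, were higher in LOI(+) by their means in 5 of 5 measured genes, without passing the adjusted test. They lie side by side on 1 chromosome in the order Gstm5, Gstm7, Gstm6, Gstm3, Gstm2, Gstm1 and Gstm4, of which Gstm6 and Gstm7 were not analysed here. Gstm3 had -1.20, -0.87 and -1.13 in LOI(-) and -0.66, -0.47 and -0.58 in LOI(+). Every LOI(+) mouse was above every LOI(-) mouse, and the difference was 0.50 ± 0.10 (SE), a fold of 1.41 (unadjusted p = 0.00154, adjusted p = 0.80 in limma). Gstm2 had -1.49, -1.49 and -1.33 in LOI(-) and -1.12, -0.83 and -1.08 in LOI(+), a difference of 0.43 ± 0.094 (SE; unadjusted p = 0.00262 in limma). Gstm1 had -1.40, -1.26 and -1.45 in LOI(-) and -1.02, -0.86 and -1.10 in LOI(+), a difference of 0.38 ± 0.084 (SE; unadjusted p = 0.0028 in limma). In all 3 genes the groups did not overlap and LOI(+) 2 was the highest mouse.

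Gstm4 had -0.0025, -0.082 and 0.099 in LOI(-) and 0.17, 0.11 and 0.23 in LOI(+), a smaller difference of 0.17 ± 0.068 (SE; unadjusted p = 0.0457 in limma) without overlap. The Cy3 signal of this Gstm4 probe was 458 to 472, close to the negative controls, so its values are weak. Gstm5, at the other end of the cluster, differed by 0.081 ± 0.11 (SE) and its groups overlapped. The median over the 5 mu genes was 0.38. It was 0.31 without LOI(+) 2, 0.23 without background correction and 0.19 with the mean over probes, with 5 of 5 above 0 each time. Further probes did not all give these values. A further Gstm2 probe of similar brightness gave 0.053 and a ratio of -0.26, and a further Gstm3 probe, at the level of the negative controls, gave -0.11. The further Gstm5 probe gave 0.15.

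**Figure D4:**
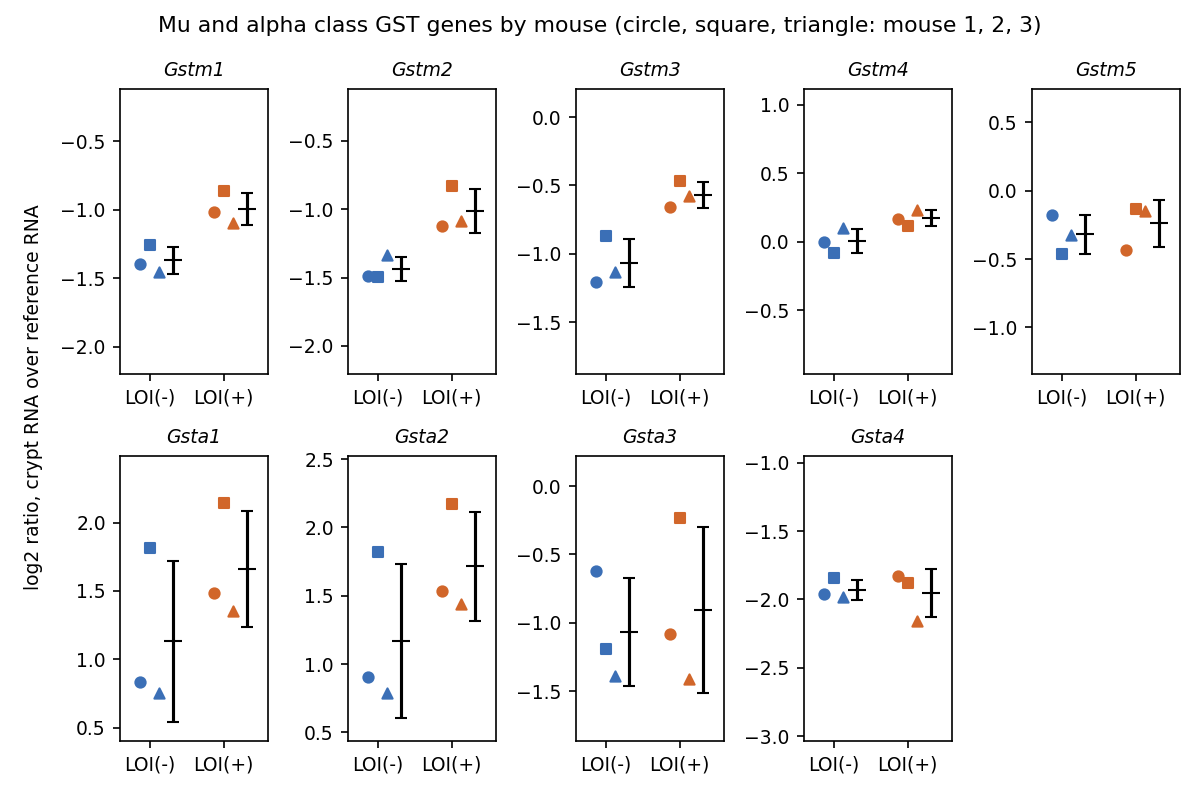
Log2 ratio of crypt to reference RNA in each mouse for the 5 measured mu and 4 alpha class GST genes (LOI(-) blue, LOI(+) orange; bars, mean and SD of 3 mice; equal span in every panel). The groups do not overlap for Gstm1 to Gstm4, while Gsta1 and Gsta2 overlap because LOI(-) 2 (square) lies above LOI(+) 1 and LOI(+) 3.

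Among the alpha genes, Gsta1 and Gsta2 had the largest mean differences of all 87 members, and also a wide spread. Gsta1 had 0.84, 1.81 and 0.75 in LOI(-) and 1.49, 2.14 and 1.35 in LOI(+), a difference of 0.53 ± 0.32 (SE; 95% interval -0.23 to 1.28). Gsta2 had 0.90, 1.82 and 0.79 in LOI(-) and 1.54, 2.17 and 1.44 in LOI(+), a difference of 0.55 ± 0.31 (SE). The second mouse of each group was the highest for both genes, and the groups overlapped. All 4 probes printed above gave this order, with differences of 0.51 to 0.55. Gsta3 had -0.62, -1.19 and -1.39 in LOI(-) and -1.08, -0.23 and -1.41 in LOI(+) and did not follow Gsta1 in LOI(-) 2. Gsta4 differed by -0.024 ± 0.097 (SE).

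Of the pi genes, Gstp2 had 0.086, -0.038 and 0.074 in LOI(-) and 0.27, 0.35 and 0.13 in LOI(+), a difference of 0.21 ± 0.076 (SE; unadjusted p = 0.0285 in limma). Gstp3 differed by 0.077 ± 0.058 (SE). Neither pi gene overlapped between groups, although both differences were small. Gstk1 and Gstt2 differed by 0.20 ± 0.19 and 0.16 ± 0.10 (SE), and the omega genes by less than 0.01.

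Outside the GST family, Ugt2b35 had 1.26, 1.21 and 1.28 in LOI(-) and 1.37, 1.85 and 1.63 in LOI(+). The LOI(-) mice were tightly grouped below all LOI(+) mice, and the difference was 0.36 ± 0.12 (SE; unadjusted p = 0.0177 in limma). A further Ugt2b35 probe gave 0.35. Cyp26a1, which breaks down retinoic acid, had -0.099, -0.050 and -0.11 in LOI(-) and 0.025, 0.20 and 0.091 in LOI(+), a difference of 0.19 ± 0.064 (SE), and its further probe gave 0.14. Cyp4a14 differed by 0.34 ± 0.13 (SE) without overlap, and its further probe gave -0.018. Cyp2a4, a steroid 15-alpha hydroxylase, had 0.58, 0.19 and 0.074 in LOI(-) and 0.86, 0.71 and 0.43 in LOI(+), groups that overlapped, and its further probe gave -0.079. Ugt1a6a and Ugt2a3 differed by 0.27 ± 0.17 and 0.41 ± 0.27 (SE), with overlapping groups.

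The members with the highest crypt ratios did not pass the adjusted test, and their groups overlapped. Besides Ugt2a3, given above, Cyp4f14 differed by -0.050 ± 0.075 (SE), Cyp3a13 by 0.090 ± 0.16, Sult1b1 by 0.10 ± 0.24, Sult1d1 by -0.20 ± 0.30 and Cyp27a1 by -0.21 ± 0.20. The largest SDs within groups belonged to Gsta3, Gsta1, Gsta2, Sult1d1, Cyp1a1 and Ugt2a3, from 0.51 down to 0.43. LOI(+) 2 gave the highest value for 10 of the 14 members above the reference and for 13 of 18 GST genes, and for 27.4% of named genes.

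Markers of gut position and of villus enterocytes are given beside these differences. Of 7 measured genes typical of the lower small intestine, 6 were lower in LOI(+) by their means, with a median of -0.34. Their mean ratio was 2.08, 1.39 and 1.82 in LOI(-) and 1.38, 1.39 and 1.37 in LOI(+), so by this mean LOI(-) 2 resembled the LOI(+) mice. Slc10a2, the only gene of the 7 whose groups did not overlap, differed by -0.69. It had 1.29, 0.54 and 0.64 in LOI(-) and 0.091, 0.14 and 0.17 in LOI(+), so LOI(-) 2 was apart from the LOI(+) mice there. Of 4 measured genes typical of the upper small intestine, 1 was higher and 3 lower in LOI(+), with a median of -0.086. Among named genes, 52.8% were higher by their means. Of 10 villus enterocyte markers, 7 were higher in LOI(+), with a median of 0.14. Their mean ratio was 2.96, 3.35 and 3.29 in LOI(-) and 3.35, 3.31 and 3.32 in LOI(+), the one low array being LOI(-) 1. The 3 villus markers that were lower in LOI(+) were Mttp (-0.35), Krt20 (-0.20, without overlap) and Vil1 (-0.055). Of the 7 that were higher, only Ada (0.27) had groups that did not overlap. None of these lists had a member past the adjusted threshold in limma. The part of gut position or of the share of enterocytes in the GST differences was not tested.

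A total of 31 members had more than 1 probe, which gave 35 further probes. The further probe had the same sign of the group difference as the one used in 20 of 35 cases. For Cyp27a1, Cyp3a13, Cyp4a14 and Sult1b1 the crypt to reference ratios of the probes were more than 1 log2 unit apart. The further Sult1b1 probe gave 1.87, that of Cyp3a13 0.054 and that of Cyp27a1 0.061. The Cy3 signal of these Cyp3a13 and Cyp27a1 probes averaged 446 and 472, close to the negative controls. The further Cyp4a14 probe gave -0.067 with a Cy3 signal of 778, against -1.19 for the probe used. The calls of Cyp3a13, Cyp27a1 and Cyp4a14 thus rest on 1 probe each. So do those of Gstm2 and Cyp2c40, whose further probes gave -0.26 and 0.78, under 2-fold. A further Cyp2c39 probe, with a Cy3 signal of 455, was lower in LOI(+) by its means without overlap, with a difference of -0.27 ± 0.053 (SE; unadjusted p = 0.00155 in limma), while the probe used gave 0.070.

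**Figure D5:**
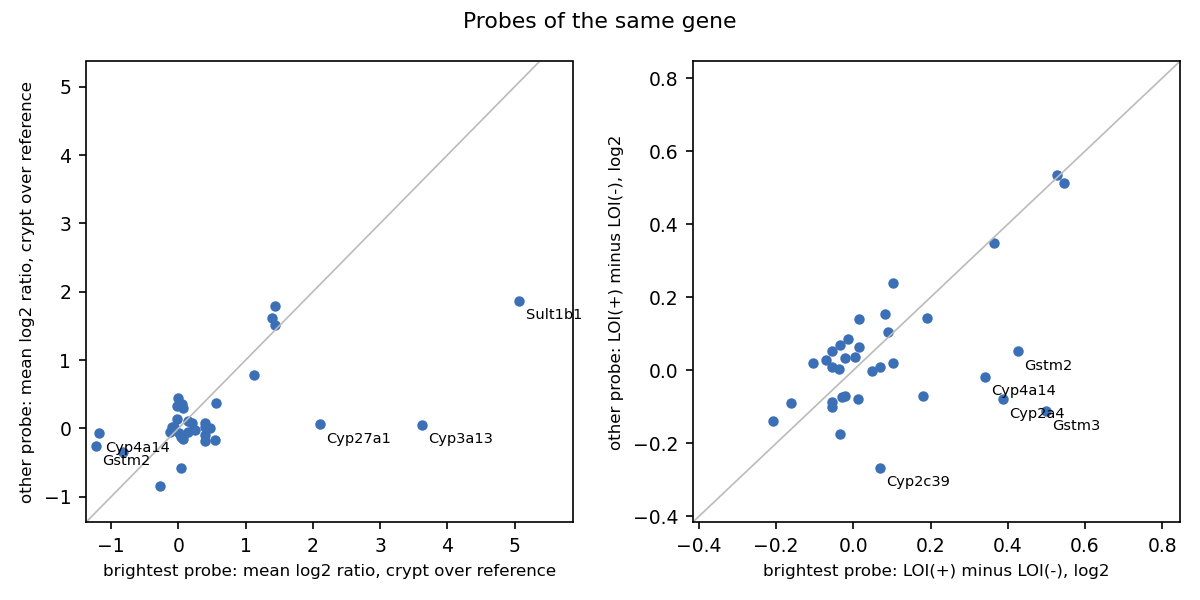
Values of the brightest probe of a gene (horizontal axis) against each of 35 further probes of the same gene (vertical axis), for the log2 crypt to reference ratio on the left and the group difference on the right, with a line at equal values. The Gsta1, Gsta2 and Ugt2b35 probes lie near the line in both panels. Sult1b1, Cyp3a13 and Cyp27a1 lie far below it on the left, and Gstm3, Cyp2a4, Gstm2 and Cyp4a14 on the right.

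Genes that supply or serve these enzymes were described by a list of partners and cofactors, 42 of 50 measured. Their median difference was 0.019, with 23 of 42 above 0, 0 past the adjusted test and 4 higher at an unadjusted p under 0.05 in limma, where 4.97% of named genes were higher at that level. Those 4 were Ces1e, a carboxylesterase (0.55 ± 0.18, SE), Aldh1a1, a retinal dehydrogenase (0.49 ± 0.20), Ephx2, the soluble epoxide hydrolase (0.26 ± 0.10), and Gstz1, a zeta class transferase of tyrosine breakdown (0.19 ± 0.075). Against the reference, 10 of the 42 were called higher (6.79% of named genes were), among them Ces2c at 3.06, the flavin monooxygenase Fmo5 at 2.95 and the membrane transferase Mgst1 at 2.20. The 3 called lower (8.42% of named genes were) included Por, the electron donor of microsomal P450 enzymes, at -1.24 and the reductase Cyb5r3 at -1.73. Glutathione reductase (Gsr) had a ratio of 1.97 and a difference of -0.28 ± 0.13 (SE).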

How the data were processed

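Crypt RNA of 6 mice was hybridised in Cy3 against reference RNA in Cy5. The authors deposited spot intensities of both channels from Agilent Feature Extraction. Per the file headers, these are intensities with mean signal and median local background not normalized. A deposited table of log10 values held processed log10 Cy3 minus log10 Cy5 plus a mean log10 Cy5 (r of 0.998 or more per array, column medians of 2.90), and served as an alternative. For the build behind the probes, none is named in the labels or headers.

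In limma 3.58.1 (R 4.3.3), signals were background-corrected (normexp, offset 50) and loess-normalized within arrays, control features having weight 0. Outlier-flagged features were left out, so that 1 member value was missing. Accessions were matched to the GRCm38.p6 gene table, which named 15429 of 41006 probes (37.6%). Differences (lmFit, eBayes, two-sided) were adjusted by Benjamini-Hochberg over 37939 genes and unnamed probes. Ratios to the reference were the mean of both group means tested against 0. The mice were separate animals, whose number limits the precision. All LOI(-) images were extracted before the LOI(+) images, and this order cannot be told apart from the group.

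The members and lists were chosen with earlier results of these data known. Members named were, per family, the 4 highest and 2 lowest ratios, the 3 of smallest p, and a list of 23 genes, 18 of them measured. The remaining names in the text were added to describe a class or a count. Alternatives covered background, normalization, values, filters, probes, model, replicate block, sex label, call rule and leaving out each mouse. The fit was tested on simulated data. Sequences come from the array's probe column and RefSeq.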

Additional observations from a re-analysis of the deposited data

How the results depend on the processing

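Over 18 alternatives, 0 features passed an adjusted p under 0.05 in limma for LOI(+) against LOI(-) in each of them, and the smallest adjusted p of a member was 0.52 to 1.00. The count of features at an unadjusted p under 0.05 was 2335, from 1498 without LOI(+) 2 to 3345 without LOI(+) 1, and 2117 with the unmoderated test. Between 4 and 11 members were higher and 0 to 4 lower at that level, with 2 lower under the replicate block and 2 without background correction. Without LOI(+) 1, 7 of 87 members (8.05%) were higher, against 8.77% of named genes. In the other alternatives the share of members was above that of named genes, as with the unmoderated test at 4.60% against 3.34%. The mu GST genes had 5 of 5 differences above 0 in each alternative, with 3 or 4 at an unadjusted p under 0.05. The median of these 5 ran from 0.19 with the mean over probes to 0.43 without LOI(+) 3. Members called above and below the reference, 14 and 4, were 9 and 2 without background correction, 44 and 15 with no minimum fold, and 7 were lower with median centring and 2 with the mean over probes. Without background correction the calls of Cyp27a1, Cyp2c40, Cyp4b1, Gstt2, Ugt2b35, Cyp4a14 and Gstm2 were lost, as both channels then keep their background and ratios shrink. Those of Cyp2c40, Cyp4a14 and Gstm2 were lost with the mean over probes too. With median centring Ugt1a6a was lost, Cyp7b1 was called higher, and Cyp2c55, Gsta3 and Gstm3 lower. Sult1a1 was called higher with processed signals, and Gsta3 lower there, with array weights, with only sex-labelled mice and without LOI(-) 1 or LOI(+) 2.

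Median ratios without background correction were 0.031 for CYP, 0.44 for UGT and 0.079 for SULT. With median centring they were 0.24 for CYP, -0.37 for GST and 0.61 for UGT, and with the mean over probes 0.10 for SULT. The median GST difference was 0.081 without background correction. Leaving out 1 mouse at a time, it ran from 0.037 to 0.19, the SULT median difference from -0.040 to 0.024 and the median CYP ratio from 0.083 to 0.11.

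Whether the replicate numbers paired the mice was not settled: deviations of same-numbered mice correlated at -0.088, -0.25 and 0.35, which can neither show nor exclude a pairing. With the replicate block, 0 features passed the adjusted test, 2464 had an unadjusted p under 0.05, and Cyp3a11 turned to 0.060.

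Of 36 named members, 19 kept the sign of their group difference over the 15 alternatives computed for single members. It turned with the mean over probes for Cyp2c29 -0.034, with median centring for Gsta4 0.0099, Ugt2a1 0.012, without background correction for Cyp2c29 -0.0025, Cyp2c55 -0.0033, Ugt2b5 0.0029, with scale normalization between arrays for Cyp2c55 -0.022, Cyp4f14 0.25, Sult1d1 0.043, Ugt2b5 0.030. The range on leaving out 1 mouse spanned 0 for Cyp1a1 -0.068 to 0.41, Cyp24a1 -0.096 to 0.022, Cyp2c29 -0.025 to 0.034, Cyp2c55 -0.014 to 0.11, Cyp3a11 -0.32 to 0.060, Cyp3a13 -0.089 to 0.24, Cyp4f14 -0.094 to 0.010, Gsta4 -0.088 to 0.077, Gstk1 -0.0040 to 0.33, Sult1b1 -0.14 to 0.33, Sult1c1 -0.015 to 0.18, Sult1c2 -0.033 to 0.20, Sult1d1 -0.38 to 0.11, Sult2a2 -0.021 to 0.15, Ugt2a1 -0.078 to 0.012, Ugt2b1 -0.18 to 0.0043, Ugt2b5 -0.079 to 0.050. Ratios to the reference turned with the mean over probes for Cyp26a1 -0.025, Sult2a2 0.062, Sult5a1 -0.048, with median centring for Sult2a2 0.34, Ugt2a1 -0.18, without background correction for Sult2a2 0.0054. Leaving out 1 mouse they ran for Cyp26a1 -0.014 to 0.031, Sult2a2 -0.063 to 0.021. None of these values had passed its threshold, and the cause of each turn was not tested. A Cy3 signal under 600 on every array was found for 32 of 87 members, against control levels of 439 to 449, and how far this limits their differences was not tested.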

Other observations

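Export pumps and regulators of the same pathway gave further values. Of 10 efflux transporters 8 were measured, and their median difference between LOI(+) and LOI(-) was -0.074 with 0 past the adjusted test in limma. Abcb1a, the P-glycoprotein pump, stood at a ratio of 2.76 to the reference and differed by 0.071 ± 0.085 (SE). Abcc2, which exports glutathione and glucuronide conjugates, differed by 0.22 ± 0.092 (SE; unadjusted p = 0.0487 in limma). Abcc3, another exporter of conjugates, had a ratio of 1.17. Of the 8 transporters, 2 were called above the reference, Abcb1a and Abcc3, and 1, Abcc5, was called below it. Among named genes, 6.79% were called above and 8.42% below.

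Of 17 regulators 15 were measured, with a median difference of -0.0048 and 0 past the adjusted test in limma. Of these, 5 were called above the reference, as were 6.79% of named genes: Nr1i2, which encodes the pregnane X receptor, at 3.12, Ppara at 2.44, Nr1h4, which encodes the bile acid receptor FXR, at 2.25, Nr1i3 (CAR) at 1.27 and Foxa2 at 1.06. At an unadjusted p under 0.05 in limma, 2 of the 15 were lower in LOI(+) and 0 higher, where 2.62% of named genes were lower. These were Nr1h4, with a difference of -0.38 ± 0.11 (SE; unadjusted p = 0.00834 in limma), and Mafk, with -0.22 ± 0.093 (SE; unadjusted p = 0.0499 in limma). Nfe2l2, which encodes NRF2, differed by 0.20 ± 0.23 and Ahr, the aryl hydrocarbon receptor gene, by 0.011 ± 0.084 (SE).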
